A study of Homo sapiens with 36 samples.

Results

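The comparison concerns 2 human cell lines before any drug reached them. SW1783 is a line from an astrocytoma, a tumour of the glial lineage of the brain, and HT29 is a line from a colorectal adenocarcinoma, a tumour of the glandular lining of the large bowel. The study used them as stand-ins for brain and intestine when it tested a water extract of a monkshood root. The members here are the 6 vehicle libraries of batch B, 3 per line, out of the 36 libraries of the series, and all genes of the deposited table were examined. All of these 6 libraries came from cells given the same vehicle, 0.1% DMSO in the medium for 24 h, and neither the extract nor wortmannin.

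Each group is a single established line, so the contrast is between 2 lines and not between brain and bowel. SW1783 was grown in L-15 medium without CO2, whereas HT29 was grown in DMEM under CO2 and plated at a higher density. Line, medium, gas phase and density changed together and cannot be told apart. The labels give replicate numbers but do not say whether the replicates were separate cultures, so p-values measure only the spread between these libraries, which may be technical.

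As background, epithelial cells of the colon form a sheet. They are joined by E-cadherin, claudins and desmosomes, carry keratin filaments and display a brush border or secrete mucus under the control of factors such as CDX2 and HNF4A. Astrocytes are star-shaped glial cells that buffer potassium and take up glutamate, and they are recognised by GFAP filaments, the water channel AQP4 and the glutamate transporters SLC1A2 and SLC1A3. Cells of gliomas kept as adherent cultures in serum are known to lose some of these features and to make collagens and other matrix proteins.

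The 6 libraries held 18260737 to 31811972 counts in HT29 and 19514611 to 23025822 in SW1783, and 14521 to 15763 genes per library had 10 counts or more. A count of 0 allows up to 3 counts, that is, 0.0943 to 0.164 CPM (counts scaled to the library total), a limit from counting error alone. Replicate 1 of HT29 stood apart from the other HT29 libraries. Among genes that averaged at least 100 normalized counts in each line, its level against the other HT29 libraries had a median log2 ratio of 0.15 in the 2313 genes with the shortest exon length and of -0.14 in the 2311 with the longest, whereas by the same measure each SW1783 library lay within 0.02 of 0 in both sets. The vehicle libraries of batch A differed from those of batch B with the same replicate number by little more than sampling noise (chi-square per degree of freedom of 1.46 to 1.64), so they were not counted as further replicates.

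The lines differed at about every second measured gene. Genes were called DEGs (differentially expressed genes) when DESeq2's Wald test gave an adjusted p under 0.05 and the lines differed by more than 1.5-fold. Of 23948 genes tested, 12143 were DEGs (50.7%), of which 6587 were higher in SW1783 (27.5%) and 5556 were higher in HT29 (23.2%). In 17610 tested genes (73.5%) the 3 values of a line did not overlap those of the other. The median log2 fold change, SW1783 over HT29, was 0.05 and the median absolute log2 fold change was 1.21. Among 15791 tested protein-coding genes, 59.7% were DEGs. These shares are the background for each list of genes that follows, and the lists hold mostly protein-coding genes. In bulk RNA, more cells that express a gene and more RNA per cell cannot be told apart.

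Genes well expressed in both lines differed by less. Genes with at least 1 CPM numbered 13923 in SW1783 and 13260 in HT29, and 11727 reached it in both. Among the 9627 genes that averaged at least 100 normalized counts in each line, the median absolute log2 fold change was 0.63, 719 differed by more than 4-fold and 4542 lay within 1.5-fold. The median standard error (SE) in these genes was 0.0889 on the log2 scale.

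**Figure D1:**
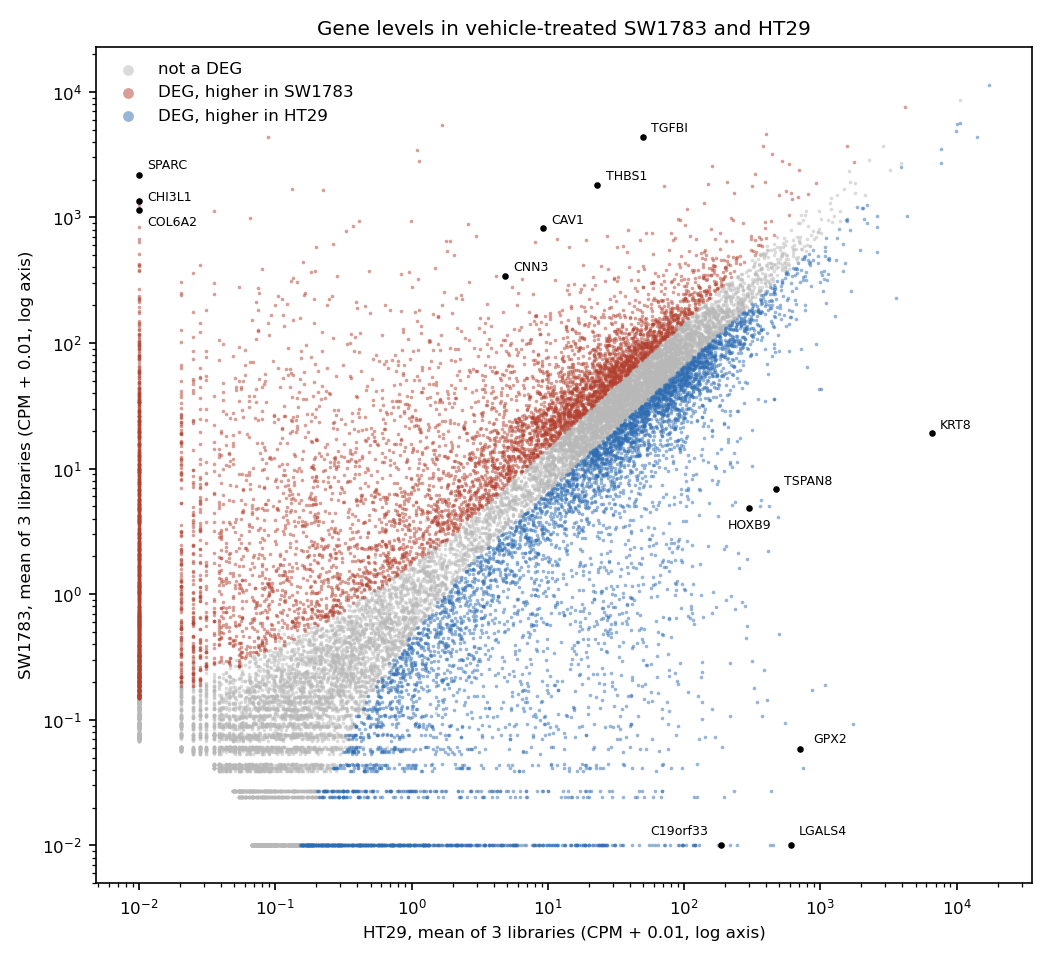
Mean level of each tested gene in HT29 (x axis) and in SW1783 (y axis), both in CPM plus 0.01 on log axes, n = 3 libraries per line, with DEGs in red (6587, higher in SW1783) and blue (5556, higher in HT29) and other tested genes in grey. SPARC, CHI3L1 and COL6A2 sit on the left edge, without a count in HT29, and LGALS4 and C19orf33 on the bottom edge, without a count in SW1783.

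A gene was called restricted to a line when it averaged at least 10 CPM there and had at most 3 counts in all over the 3 libraries of the other line. This is a description with no test. SW1783 had 366 such genes, 345 of them protein-coding, and 243 of the 366 had no count at all in HT29. HT29 had 177, of which 157 were protein-coding and 90 had no count in SW1783. The restricted genes of SW1783 took 3.29% of its counts and those of HT29 took 1.09%.

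SPARC and 3 collagen chains were among the most abundant restricted genes of SW1783. Levels per length are given as TPM (length-scaled transcript levels, computed here from counts and exon lengths), in the order of replicates 1, 2 and 3. SPARC, a secreted glycoprotein that binds collagen, stood at 1880.0, 1911 and 1794 TPM in the SW1783 libraries and had no count in HT29. With counts scaled to library totals, it was at least 52599-fold higher in SW1783. It lies at chr5:151661096-151686975 of GRCh38. The collagen chains COL6A2 (813, 870.1 and 875 TPM), COL1A2 (807, 799 and 764 TPM) and COL5A1 (769, 803 and 766 TPM) were likewise without a count in HT29. COL1A2 and COL5A1, which help build collagen fibrils, were at least 51973-fold and at least 52980-fold higher, and COL6A2, a chain of the beaded filaments around cells, was at least 27698-fold higher.

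The other restricted genes of this group joined secreted regulators with a surface receptor. CHI3L1, a secreted chitinase-like protein that is abundant in reactive astrocytes and in gliomas, had 1589, 1551 and 1634 TPM against no count, at least 32508-fold higher. ITGA5, the alpha chain of the fibronectin receptor, had 681, 665 and 666 TPM and no count in HT29. LOXL2, an enzyme that crosslinks collagen, had 744, 752 and 738 TPM, with 0, 1 and 1 counts in the HT29 libraries, for a ratio of 40694 (95% counting interval 11265 to 336030). An annotated gene overlaps LOXL2 on its strand, which leaves its share of reads uncertain. HTRA1, a secreted protease, averaged 469 TPM, SPOCK1, a matrix proteoglycan, 428 TPM and STC2, a secreted glycoprotein hormone, 402 TPM, each without a count in HT29. BEX1, an adaptor first described in brain (502 TPM), and RTL8C, derived from a retrotransposon (500.4 TPM), belong to families with near-identical copies, so that their split of reads is uncertain.

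In HT29 the corresponding genes included markers of the gut lining. GPX2, the glutathione peroxidase of the gastrointestinal epithelium, had 1596, 1667 and 1716 TPM in the HT29 libraries and 1, 1 and 1 counts in the SW1783 libraries, for a ratio of 14710 (95% counting interval 5033 to 71331). LGALS4, the lectin galectin-4 of the intestinal surface, had 833, 873 and 849 TPM and no count in SW1783, at least 12566-fold higher in HT29. KRT20, the keratin of differentiated colonic cells, had 368, 409 and 425 TPM and was at least 5089.7-fold higher. AGR2, an enzyme that folds mucins in goblet cells, had 238, 249 and 244 TPM and was at least 4464-fold higher.

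Proteins of epithelial junctions, surface and trafficking filled most of the other places. ST14, the membrane protease matriptase, had 307, 347 and 323 TPM and no count in SW1783. E-cadherin itself, CDH1, had 188, 240.4 and 244 TPM and 0, 0 and 1 counts in SW1783, a ratio of 27372 (95% counting interval 4912 to 1081200). LAD1, a filament-anchoring protein, averaged 223 TPM and RAB25, a vesicle regulator of epithelia, 213 TPM. TM4SF4, a membrane protein with 4 predicted passes, averaged 912 TPM, S100P, a calcium-binding protein, 787 TPM, and C19orf33 941 TPM, all without a count in SW1783. Replicate 1 had the fewest counts in all of the HT29 libraries. It still had more counts than replicate 3 for C19orf33 (4329 against 3327) and S100P (2648 against 2207), so these means lean on it. ALDH1A1, which makes retinoic acid, averaged 824 TPM against 0, 1 and 1 counts in SW1783, a ratio of 23216 (95% counting interval 6426 to 191700). CDH1, LAD1, TM4SF4 and C19orf33 each overlap another gene on the same strand.

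The promoters of the restricted genes were read from RefSeq (GRCh38.p14) for the letters of motifs that epithelial and mesenchymal regulators are known to bind. The E-box CACCTG, in either orientation (CAGGTG), is the site at which the repressors of the SNAI and ZEB families bind the E-cadherin promoter. It stood within the 250 bases before the start in 43 of 109 genes restricted to HT29 that matched an entry (39.4%), in 41 of 248 restricted to SW1783 (16.5%) and in 5635 of all 27305 genes in the table (20.6%). Counted over windows, since a gene can have several starts, the shares were 32.7% of 150, 11.9% of 394 and 17.5% of 35116. The median GC content of the windows was 59.2%, 61.6% and 58.0%.

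Windows from some abundant restricted genes are printed as examples of where the letters fall, and they do not represent either group. Of the windows not printed for the E-box, those of TM4SF4, ALDH1A1, KRT20 and AGR2, restricted to HT29, hold none, and that of S100P holds 1. Those of CHI3L1 and STC2, restricted to SW1783, hold 1 each, and those of COL6A2, COL5A1, ITGA5, BEX1 and HTRA1 hold none. Each printed window holds the 250 bases before the transcription start, 5′ to 3′ on the strand of the gene, with E-boxes in capitals.
GPX2: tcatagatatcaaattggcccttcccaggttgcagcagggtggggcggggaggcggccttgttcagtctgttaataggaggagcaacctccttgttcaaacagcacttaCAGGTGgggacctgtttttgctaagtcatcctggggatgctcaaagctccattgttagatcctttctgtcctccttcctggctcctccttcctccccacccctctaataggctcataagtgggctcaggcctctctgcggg
LGALS4: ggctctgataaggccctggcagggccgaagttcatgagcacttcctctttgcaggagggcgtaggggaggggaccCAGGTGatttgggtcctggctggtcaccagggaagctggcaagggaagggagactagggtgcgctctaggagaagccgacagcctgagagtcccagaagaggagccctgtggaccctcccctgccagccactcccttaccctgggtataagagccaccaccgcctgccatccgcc
LAD1: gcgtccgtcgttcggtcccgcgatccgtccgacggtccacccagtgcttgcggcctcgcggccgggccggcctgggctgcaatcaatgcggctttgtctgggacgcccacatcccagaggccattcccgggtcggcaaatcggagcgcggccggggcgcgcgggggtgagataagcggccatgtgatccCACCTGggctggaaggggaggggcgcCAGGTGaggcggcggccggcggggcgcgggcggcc
RAB25: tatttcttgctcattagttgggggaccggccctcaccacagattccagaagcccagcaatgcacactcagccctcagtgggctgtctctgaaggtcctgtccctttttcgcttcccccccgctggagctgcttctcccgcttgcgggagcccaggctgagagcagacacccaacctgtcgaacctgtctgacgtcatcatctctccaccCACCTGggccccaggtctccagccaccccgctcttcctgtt
SPARC: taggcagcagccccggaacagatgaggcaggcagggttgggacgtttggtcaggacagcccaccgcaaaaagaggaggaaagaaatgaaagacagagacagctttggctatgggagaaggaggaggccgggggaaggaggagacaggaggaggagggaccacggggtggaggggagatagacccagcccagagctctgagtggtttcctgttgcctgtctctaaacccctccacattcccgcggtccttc
GPX2 (chr14:64942746-64942995 on the minus strand) holds the E-box 141 bases before its start, LGALS4 (chr19:38812946-38813195 on the minus strand) 175 bases before and RAB25 (chr1:156060910-156061159 on the plus strand) 41 bases before. LAD1 (chr1:201399325-201399574 on the minus strand) holds 2 of them, and SPARC (chr5:151686916-151687165 on the minus strand), the most abundant gene restricted to SW1783, holds none. Of the 12 most abundant restricted genes per line, windows were read gene by gene for 9 of HT29 and 8 of SW1783. The E-box was held by 5 and 2 of these. The remaining genes were not read in this way, and whether each of them has an entry was not settled here. These counts therefore do not compare the lines.

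Motifs of intestinal factors were searched in the same windows. The CDX letters TTTATG stood in 14.7% of HT29 windows, 8.12% of SW1783 windows and 9.64% of all windows, and GTTAAT, part of the HNF1 site, in 9.33%, 5.58% and 6.23%. Both strands were searched. KRT20, which CDX factors are known to regulate, carries both motifs, in capitals here.
KRT20: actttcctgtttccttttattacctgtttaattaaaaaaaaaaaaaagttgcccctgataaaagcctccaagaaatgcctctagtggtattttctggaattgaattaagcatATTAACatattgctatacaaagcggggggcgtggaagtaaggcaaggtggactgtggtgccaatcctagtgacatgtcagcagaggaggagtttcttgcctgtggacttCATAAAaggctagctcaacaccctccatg
In KRT20 (chr17:40885243-40885492 on the minus strand) the CDX letters begin 29 bases and the HNF1 letters 138 bases before the start. The AP-1 letters TGACTCA stood in 7.33%, 7.61% and 6.57% of the windows of HT29, SW1783 and all genes, and the TEAD letters GGAATG in 10.7%, 11.2% and 11.9%. None of the 5 motifs contains another, and a match shows only that these letters are in the window.

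Some genes were well expressed in both lines and still differed strongly. Among genes averaging at least 100 normalized counts in each line, the largest differences toward SW1783 were at CAV1, the coat protein of caveolae, with 857, 823 and 822 TPM in SW1783 and 7.12, 7.45 and 7.88 TPM in HT29 (log2 fold change 6.49 ± 0.07, adjusted p listed as 0, where 0 stands for a value below the smallest number the software writes). TGFBI, a matrix protein that transforming growth factor beta induces, had 2237, 2294 and 2225 against 18.0, 21.2 and 21.5 TPM (log2 fold change 6.48 ± 0.05). THBS1, the matrix protein thrombospondin-1, had 805, 779 and 780.2 against 6.76, 7.81 and 9.08 TPM (log2 fold change 6.33 ± 0.07), with an overlapping gene on its strand. SERPINE2, an inhibitor of proteases (6.34 ± 0.08), CNN3, an actin-binding calponin (6.17 ± 0.09), COL4A2, a chain of basement membranes (5.88 ± 0.07), GLIPR1, first described in glioma (5.70 ± 0.09), and DSEL, which modifies dermatan sulfate (5.64 ± 0.09), followed with these log2 fold changes ± SE.

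Toward HT29 the leading gene was KRT8, the type II keratin of simple epithelia, with 3132, 3091 and 2704 TPM in HT29 and 11.4, 11.1 and 10.8 TPM in SW1783 (log2 fold change -8.39 ± 0.10, adjusted p listed as 0). S100A4, a calcium-binding protein often used as a fibroblast marker, had 1317, 1128 and 1090.2 TPM in HT29 and 21.9, 19.1 and 21.9 TPM in SW1783 (log2 fold change -6.14 ± 0.14), the higher level being in the epithelial line. TSPAN8, a tetraspanin of gut epithelium, differed by -6.08 ± 0.11, SERPINA1, the protease inhibitor alpha-1-antitrypsin, by -6.02 ± 0.10, LRATD2 by -6.37 ± 0.10 and HOXB9, a posterior homeobox factor, by -5.92 ± 0.10. F11R, a tight junction adhesion molecule (-5.44 ± 0.12), and CRABP2, a carrier of retinoic acid (-5.41 ± 0.13), completed the 8. S100A4, HOXB9 and F11R each overlap another gene on the same strand. The rule required that the lines not overlap.

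The label of HT29 was checked against 6 markers of colonic epithelium, and all were well above SW1783. EPCAM, the adhesion molecule of epithelia, had 701, 703 and 717 TPM in HT29 and 0.248, 0 and 0.165 TPM in SW1783 (log2 fold change -12.72 ± 0.65, adjusted p = 1.7e-84), with 2 overlapping genes on its strand. KRT20, LGALS4 and CDH1 are given above. VIL1, the actin bundler of the brush border, had 71.8, 84.3 and 85.7 TPM and no count in SW1783, at least 3700.2-fold higher. CDX2, the homeobox factor of intestinal identity, was low in absolute terms, at 4.19, 4.70 and 4.78 TPM, and had no count in SW1783, at least 107-fold higher.

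The whole junction list moved together. Of 35 listed genes of epithelial junctions and adhesion, 35 were tested and 35 were higher in HT29, with a median log2 fold change of -6.87. Their summed level was 7055 to 7167 CPM in the HT29 libraries and 329 to 332 CPM in the SW1783 libraries. MAL2, a protein of apical transport, led in HT29 with 911, 1007 and 1019 TPM against 0.292, 0.150 and 0.175 TPM (log2 fold change -12.55 ± 0.44), followed by EPCAM and by the protease inhibitor SPINT2 (543, 534 and 517 against 0.237, 0.102 and 0.0395 TPM). PERP, a desmosome-associated protein that is expressed outside simple epithelia as well, was among the members most abundant in SW1783 and was still higher in HT29 (126, 121 and 124 TPM against 221, 237 and 238 in HT29, log2 fold change -1.23 ± 0.05).

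Genes of intermediate filaments were called in both directions. Of 31 listed genes, 26 were tested, 9 were higher in SW1783, 10 were higher in HT29 and 7 were not called. Vimentin, VIM, the filament of mesenchymal cells, was the sharpest of them, with 3198, 3349 and 3453 TPM in SW1783 and 0.0626, 0.0784 and 0 TPM in HT29 (log2 fold change 15.71 ± 0.59, adjusted p = 1.23e-153). KRT18, the partner of KRT8, stood at 3528, 3686 and 3678 TPM in HT29 but was also present at 298, 286 and 293 TPM in SW1783 (log2 fold change -3.95 ± 0.05). KRT7, a keratin of ductal epithelia that the large bowel mostly lacks, ran the other way, with 634, 638 and 645 TPM in SW1783 and 1.66, 1.60 and 1.20 TPM in HT29 (log2 fold change 8.44 ± 0.13), and so did KRT81, a hair keratin (258, 258 and 271 against 0.0840, 0.158 and 0.0752 TPM, 10.88 ± 0.65). KRT1, KRT6A and INA had no count in either line.

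Regulators of the epithelial state followed the junctions. Of 18 epithelial transcription and splicing factors, all tested, 13 were higher in HT29 and 3 in SW1783, with a median of -6.21 when genes without a count in a line are set at their bound. KLF5, a factor of proliferating crypt cells, was the most abundant in HT29 (355, 399 and 408 TPM against 39.2, 38.4 and 38.1, log2 fold change -3.64 ± 0.05), and the splicing regulator ESRP1 had 109, 133 and 133 TPM against no count (at least 4072-fold higher). TFAP2A was the most abundant in SW1783 and higher there (38.0, 40.6 and 43.7 against 2.31, 2.44 and 2.08 TPM, 3.84 ± 0.11). Of 25 intestinal transcription factors, 23 were tested, 16 were higher in HT29, 2 were higher in SW1783 and 5 were not called. HNF4A, a master regulator of enterocytes, had 24.8, 31.7 and 32.6 TPM and no count in SW1783, whereas CREB3L1 (249, 261 and 256 TPM in SW1783 and 145, 155 and 160.2 TPM in HT29) and the vitamin D receptor VDR (log2 fold change 0.15 ± 0.07) were not called.

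Genes of mucus and antimicrobial defence were mostly higher in HT29, and so were brush border genes. Of 37 genes of mucins, goblet cells and antimicrobial defence, 30 were tested and 27 were higher in HT29. Lysozyme, LYZ, had 3125, 3217 and 3158 TPM in HT29 against 0.116, 0.0998 and 0.350 TPM in SW1783 (log2 fold change -14.39 ± 0.65, adjusted p = 5.94e-108), and LCN2, an iron-binding antimicrobial protein, had 171, 174 and 169.7 against 0.252, 0.108 and 0.126 TPM. MUC5AC, a gel-forming mucin of the stomach, had 16.3, 23.3 and 24.9 TPM and MUC2, the gel-forming mucin of the bowel, 6.46, 9.22 and 9.50 TPM, neither with a count in SW1783. MUC1, a membrane mucin (6.11, 5.52 and 7.28 against 0.945, 1.14 and 0.544 TPM, 2.51 ± 0.34), and the antiprotease SLPI were higher in SW1783. Of 43 brush border and enterocyte genes, 31 were tested, 24 were higher in HT29 and 1 was higher in SW1783, but several digestive enzymes and carriers were near the floor. SLC26A3, ALPI, APOB, APOA4, AQP8 and TMIGD1 had no count in either line, and sucrase-isomaltase, SI, had 0.132, 0.264 and 0.284 TPM in HT29. The exception toward SW1783 was ANPEP, an aminopeptidase of brush borders that mesenchymal cells also carry, with 739.6, 734 and 726 TPM against 0.225, 0.181 and 0.345 TPM (log2 fold change 11.26 ± 0.28).

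Stem cell genes of the crypt were mixed. Of 30 listed stem and enteroendocrine genes, 28 were tested, 12 were higher in HT29, 6 in SW1783 and 10 were not called. LGR5, the crypt stem cell receptor, had 16.4, 19.9 and 19.4 TPM against 0.538, 0.231 and 0.577 TPM (-5.72 ± 0.26), and RNF43, which limits WNT receptors, had 109.5, 154 and 151 against 0.571, 0.381 and 0.540 TPM (-8.45 ± 0.23). EPHB2, a receptor of crypt base cells, was higher in SW1783 (77.6, 74.2 and 77.8 against 0.492, 0.608 and 0.614 TPM, 6.74 ± 0.13), and so was the hyaluronan receptor CD44 (1128, 1101 and 1105 against 145, 169.7 and 177 TPM, 2.45 ± 0.05). PYY had no count in any library.

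The label of SW1783 was checked in the same way, and the defining markers of astrocytes were absent or low. GFAP, the astrocyte filament, had 0.0179, 0.0920 and 0.0358 TPM in SW1783 and 0.101, 0.0632 and 0.0258 TPM in HT29, and the lines overlapped (log2 fold change -0.69 ± 1.05, adjusted p = 0.586). AQP4 had no count in any of the 6 libraries, nor did the radial glial carrier FABP7. S100B, a calcium-binding protein of glia, had 5, 2 and 0 counts in SW1783 and none in HT29 and was not called, and SLC1A2 had 0.0705, 0.0679 and 0.0529 TPM in SW1783 and no count in HT29. ALDH1L1, a folate enzyme of astrocytes, was higher in HT29 (1.28, 1.52 and 1.44 TPM against 0, 2 and 0 counts in SW1783). The glutamate transporter SLC1A3 was the only defining marker that was clearly present in SW1783, with 6.20, 6.34 and 6.5 TPM and no count in HT29 (at least 819-fold higher). Of the 6 defining astrocyte markers, 1 stood above 1 TPM in the libraries labelled astrocytoma.

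**Figure D2:**
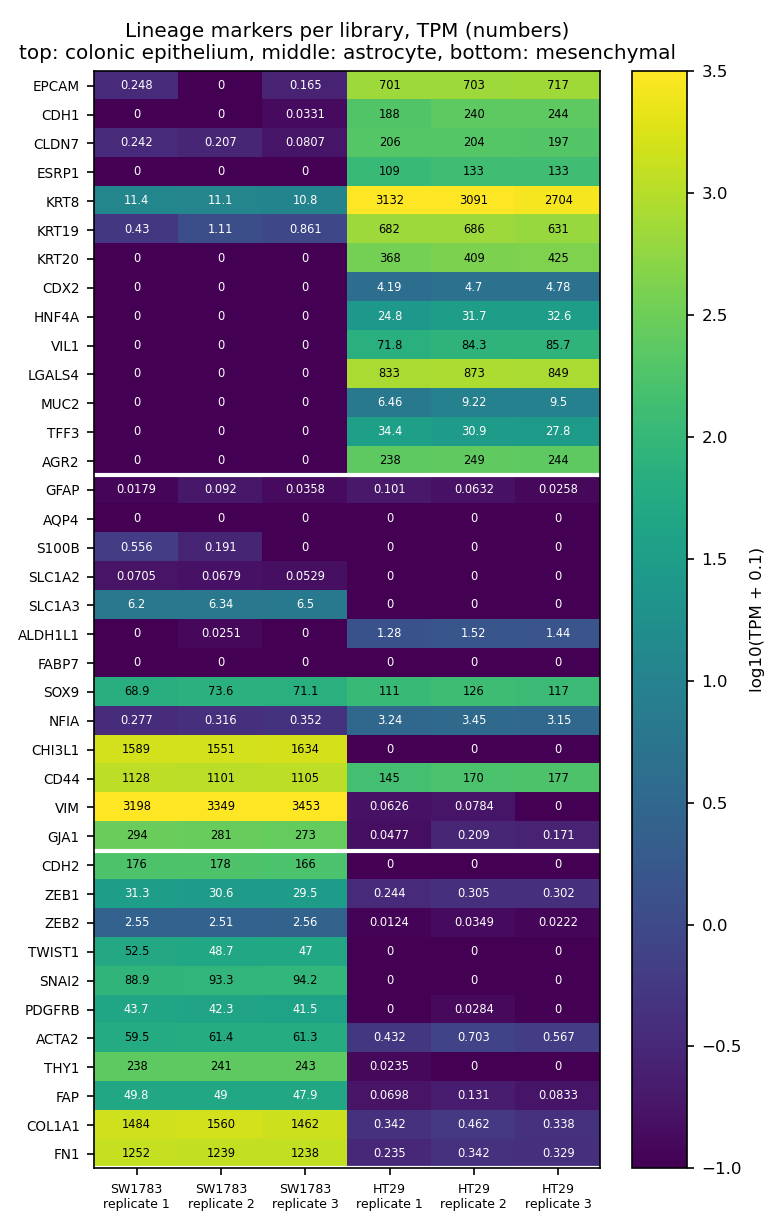
Level of lineage markers in each of the 6 libraries (columns, 3 per line), as numbers in TPM and as colour on a log10(TPM + 0.1) scale, with colonic epithelial genes at the top, astrocyte genes in the middle and mesenchymal genes at the bottom. The epithelial block is bright in the HT29 columns, the mesenchymal block in the SW1783 columns, and of the first 6 astrocyte genes only SLC1A3 exceeds 1 TPM in SW1783.

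The astrocyte list as a whole was called in both directions. Of 39 listed genes, 35 were tested, 15 were higher in SW1783, 11 were higher in HT29 and 9 were not called, with a median of 1.21. Besides vimentin, CHI3L1 and CD44, the gap junction protein GJA1 (294, 281 and 273 against 0.0477, 0.209 and 0.171 TPM, 10.54 ± 0.42) and the transcription regulator ID3 (631, 637 and 599 against 0.108, 0.203 and 0.291 TPM, 11.27 ± 0.55) were high in SW1783. SOX9, which acts in both gliogenesis and the crypt, was higher in HT29 (111, 126 and 117 against 68.9, 73.6 and 71.1 TPM, -1.05 ± 0.06), and the gliogenic factor NFIA was nearly absent from SW1783 (0.277, 0.316 and 0.352 against 3.24, 3.45 and 3.15 TPM, -3.70 ± 0.12). SOX2 had 1, 1 and 0 counts in the SW1783 libraries.

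Of 36 genes that sort gliomas into subtypes, 35 matched, 28 were tested, 16 were higher in SW1783 and 4 were higher in HT29. TIMP1, an inhibitor of metalloproteases, had 2658, 2629 and 2653 against 211, 195 and 181 TPM (log2 fold change 3.43 ± 0.09). Of the genes of glial progenitors, OLIG1 and PTPRZ1 had no count in either line and OLIG2 had 2, 3 and 0 counts in SW1783. MGMT, the repair enzyme whose silencing matters for alkylating drugs in glioma, was lower in SW1783 (0.400, 0.554 and 0.431 against 9.43, 8.75 and 8.29 TPM in HT29, -4.57 ± 0.26, adjusted p = 1.27e-69).

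Markers of other cell types were looked up because a culture or a tumour line can carry them. The fibroblast and pericyte list was the most prominent in SW1783. Of 20 listed genes, all tested, 16 were higher in SW1783 and 2 in HT29, and their sum was 5022 to 5199 CPM in SW1783 and 360 to 456 CPM in HT29. COL1A1, the main chain of type I collagen, had 1484, 1560.5 and 1462 TPM against 0.342, 0.462 and 0.338 TPM (11.60 ± 0.17), MYL9, a myosin light chain of contractile cells, had 295, 292 and 314 against 0.462, 0.506 and 0.310 TPM, and THY1, a surface protein of fibroblasts and neurons, averaged 240.4 TPM with 1, 0 and 0 counts in HT29.

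The factors that drive mesenchymal character ran opposite to the epithelial ones. Of 22 listed factors and effectors, all tested, 20 were higher in SW1783 and 2, S100A4 and FOXC1, were higher in HT29, with a median of 8.89. SNAI2 (88.9, 93.3 and 94.2 TPM), TWIST1 (52.5, 48.7 and 47.0 TPM) and the mesenchymal cadherin CDH2 (176, 178 and 166 TPM) had no count in HT29, and ZEB1 had 31.3, 30.6 and 29.5 against 0.244, 0.305 and 0.302 TPM (6.42 ± 0.21). FN1, fibronectin, had 1252, 1239 and 1238 TPM against 0.235, 0.342 and 0.329 TPM (11.67 ± 0.14, adjusted p listed as 0). In all 22 genes of this list and all 35 of the junction list the libraries of the lines did not overlap, against 73.5% of all tested genes. All of these genes were DEGs, and 12096 of the 12143 DEGs did not overlap, so this adds little to the calls.

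Markers of neurons, leukocytes, endothelium and oligodendrocytes were read as well. Of 21 neuron genes, 14 were tested, 7 were higher in SW1783, 4 were higher in HT29 and 3 were not called. In SW1783 the sum was 257 to 269 CPM against 32.4 to 34.0 CPM in HT29. The tubulin TUBB3 (56.3, 59.0 and 59.2 against 0.830, 1.12 and 1.19 TPM) and the hydrolase UCHL1 (45.2 TPM against 0, 1 and 0 counts in HT29) were among the most abundant, whereas SLC17A6 and SLC32A1 had no count in either line. Of 17 leukocyte and microglia genes, 10 were tested and 4 were higher in each line, the 4 in HT29 falling to 2 when any HT29 library or replicate 1 or 3 of SW1783 was left out. The lysosomal protein CD68 reached 256, 254 and 265 TPM in SW1783 and the leukocyte phosphatase PTPRC 3.27, 3.65 and 3.52 TPM, while CD3E, MS4A1, TYROBP and SPI1 were at 0 in all 6 libraries. Of 12 endothelial genes, 10 were tested, 5 were higher in SW1783, led by the receptor KDR (17.3, 18.1 and 17.6 TPM, no count in HT29), and 3 without replicate 3 of SW1783 or replicate 2 of HT29. The adhesion molecule ESAM, which some epithelia also carry, was in HT29 (52.6, 54.1 and 51.3 against 0.619, 0.589 and 0.551 TPM), and ERG and SOX17 were at 0 throughout. Of 12 oligodendrocyte genes, 8 were tested and 5 were higher in HT29, led by the lipid enzyme UGT8 (72.5, 86.2 and 90.6 TPM, no count in SW1783). In SW1783 3 were higher, led by the enzyme CNP (82.9, 82.4 and 82.4 against 33.6, 36.2 and 34.8 TPM). The myelin genes MAG and ENPP6 were at 0 throughout.

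HOX genes record position along the body axis, and both lines expressed them, in different clusters. Brain tissue in front of the hindbrain normally expresses no HOX genes. Of 11 HOXA genes, all tested, 9 were higher in HT29 and 2 were not called. Of 10 HOXB genes, 9 were tested, 7 were higher in HT29 and 1 in SW1783. Of 9 HOXC genes, 8 were tested and 5 were higher in SW1783 and 3 were not called. Of 9 HOXD genes, 8 were tested, 6 were higher in SW1783 and 1, HOXD13, was higher in HT29 (3.02, 2.27 and 2.70 against 1.83, 1.99 and 1.25 TPM), a call that was lost without replicate 1 of HT29 or replicate 3 of SW1783.

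HOXA13, of the hindgut end of its cluster, had 47.3, 57.9 and 61.9 TPM in HT29 and 1.7, 1.76 and 2.18 TPM in SW1783 (log2 fold change -5.21 ± 0.15, adjusted p = 7.14e-267), and HOXB9 had 337, 374 and 369 against 7.45, 8.52 and 6.14 TPM. HOXC10 had 43.5, 39.4 and 42.8 TPM in SW1783 against 0, 0.128 and 0.122 TPM in HT29 (8.53 ± 0.66, adjusted p = 9.88e-38), HOXC13 27.1, 27.5 and 26.2 against 1.58, 2.32 and 1.66 TPM (3.51 ± 0.19) and HOXD8 11.9, 11.5 and 10.7 TPM with 0, 0 and 1 counts in HT29. HOXA9 was expressed in both, at 27.8, 30.8 and 32.2 TPM in SW1783 and 51.7, 57.4 and 51.0 TPM in HT29 (-1.14 ± 0.09). HOXD12 had no count in either line. Of 15 noncoding RNAs of the clusters, 7 were higher in HT29 and 5 in SW1783. HOTTIP, next to HOXA13, averaged 35.6 CPM in HT29 with 1, 2 and 0 counts in SW1783, and HOTAIRM1, also of the HOXA cluster, did not differ by the rule (36.4, 47.7 and 40.3 TPM in SW1783 and 44.5, 42.1 and 38.7 TPM in HT29). Most HOX genes overlap a neighbour on the same strand, so single values there are uncertain.

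**Figure D3:**
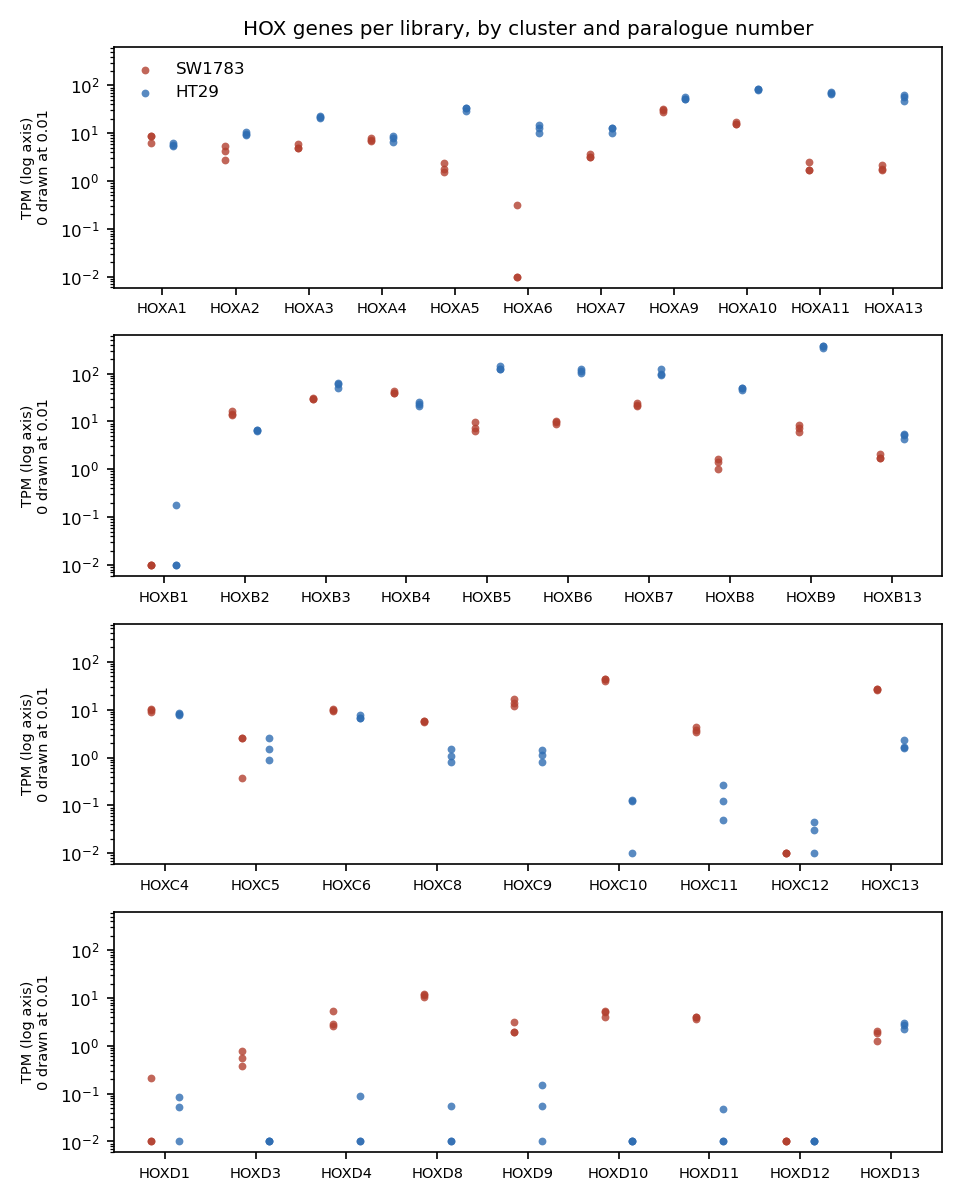
Level of HOX genes in each library (TPM on a log axis, 0 drawn at 0.01), with a panel per cluster and genes ordered by paralogue number, SW1783 in red and HT29 in blue, 3 points per line. HT29 lies above SW1783 at the posterior HOXA and HOXB genes, and SW1783 lies above HT29 at HOXC8 to HOXC11, HOXC13 and HOXD3 to HOXD11.

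Of the 58 lists of pathways and markers, collagens had the highest median toward SW1783 when genes without a count in a line were set at their lower bound, whereas on fitted values the mesenchymal factors above ranked higher (10.78 against 10.57). Of 24 fibrillar and associated collagens, 22 were tested, 18 were higher in SW1783 and 1 in HT29, with a median of 9.95. Their sum was 12380 to 12770 CPM in SW1783 and 56.0 to 56.7 CPM in HT29. COL6A1, the partner of COL6A2, had 1168, 1194 and 1231 TPM against 0.0585, 0.0733 and 0.0786 TPM (log2 fold change 13.74 ± 0.48, adjusted p = 8.69e-176). COL9A3, a cartilage-type collagen, was the exception in HT29 (12.7, 12.1 and 11.8 against 0.0415, 0.0356 and 0.0831 TPM, -8.18 ± 0.74). COL9A1 had no count in either line.

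Both epithelia and stroma make basement membrane. Of its 25 listed genes, all tested, 17 were higher in SW1783, 3 in HT29 and 5 were not called. LAMC1, the gamma chain of most laminins, led in SW1783 (376, 382 and 360.5 against 10.9, 16.4 and 15.8 TPM, 4.38 ± 0.09), followed by NID2, a linker of laminin and collagen IV (174, 174 and 173 against 0.0261, 0.0489 and 0.0233 TPM, 11.97 ± 0.65). AGRN, the proteoglycan agrin, led in HT29 (329.6, 413 and 367 against 58.9, 61.9 and 60.8 TPM, -2.93 ± 0.06), and LAMB3, a chain of the laminin under epithelia, was also higher there (56.7, 65.2 and 66.3 against 4.75, 4.30 and 4.63 TPM, -4.10 ± 0.10). HSPG2, perlecan, was expressed in both (103, 104 and 97.8 TPM in SW1783 and 74.6, 112 and 105 TPM in HT29) and not called.

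Of 46 proteoglycans and matrix glycoproteins, 44 were tested, 34 were higher in SW1783 and 6 in HT29. Alongside TGFBI, SPARC and FN1, SW1783 expressed the syndecan SDC4 (432, 427 and 412 against 97.6, 102 and 102 TPM, 1.76 ± 0.05). HT29 had more SDC1, the syndecan of epithelia (208, 242 and 235 against 92.4, 89.2 and 93.0 TPM, -1.64 ± 0.05), and more biglycan, BGN (137, 166 and 148 against 91.6, 90.4 and 85.3 TPM, -1.07 ± 0.07). Of 22 collagen-modifying enzymes and chaperones, all tested, 19 were higher in SW1783 and 1 in HT29. The lysyl hydroxylase PLOD1 had 393, 402 and 395 against 21.4, 23.2 and 22.5 TPM (3.83 ± 0.05) and the collagen chaperone SERPINH1 317, 319 and 325 against 28.0, 29.9 and 30.4 TPM (3.13 ± 0.05), whereas PLOD3 (200.2, 204 and 200.4 TPM in SW1783 and 110.0, 125 and 118 TPM in HT29) was not called.

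Of 32 matrix proteases and their inhibitors, all tested, 24 were higher in SW1783 and 6 in HT29. MMP14, a membrane-bound collagenase, had 609, 609 and 618 TPM against 1.79, 2.37 and 1.85 TPM (7.92 ± 0.11). HT29 instead carried MMP7, matrilysin of glandular epithelia (70.1, 71.1 and 72.0 against 0.260, 0.816 and 0.260 TPM, -7.58 ± 0.36), and MMP15 (70.3, 80.6 and 76.4 against 6.79, 7.24 and 8.22 TPM, -3.67 ± 0.09). Of 23 integrins, 21 were tested, 12 were higher in SW1783 and 6 in HT29. Next to ITGA5, SW1783 had more ITGB1, the shared beta chain (519.7, 519.6 and 506 against 71.0, 90.3 and 93.3 TPM, 2.29 ± 0.07), and ITGA3 (622, 633 and 638 against 66.7, 80.9 and 76.2 TPM). HT29 had more of both chains of the hemidesmosome integrin, ITGA6 (159, 205 and 216 against 33.3, 34.0 and 32.6 TPM, -2.85 ± 0.08) and ITGB4 (159, 195 and 188 against 20.4, 20.0 and 19.8 TPM, -3.48 ± 0.06). ITGA8 had no count in either line.

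**Figure D4:**
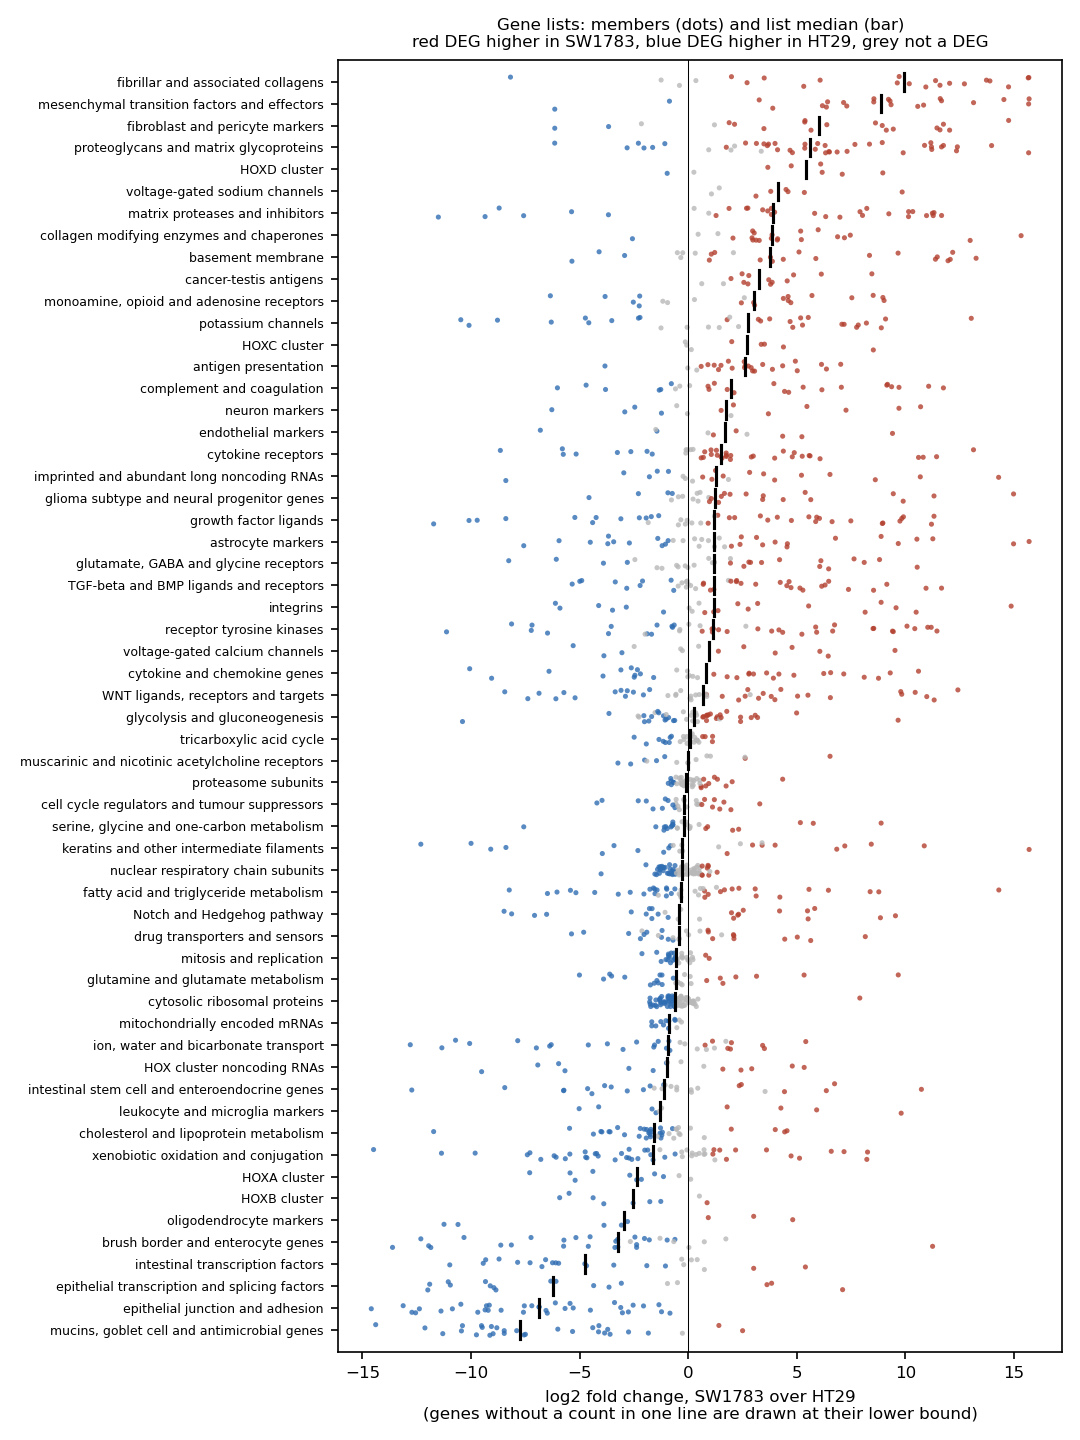
Log2 fold change, SW1783 over HT29, of each tested member (dots) of 58 gene lists, with the list median as a bar and lists sorted by it. DEGs are red (higher in SW1783) or blue (higher in HT29) and other members grey, and genes without a count in a line are drawn at their lower bound. Collagens (median 9.95) and mesenchymal genes (8.89) stand at the top, epithelial junctions (-6.87) and mucins (-7.73) at the bottom, and the proteasome, ribosome and respiratory chain near 0.

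Receptor tyrosine kinases, the receptors for growth factors, were called in both directions. Of 48 listed, 43 were tested, 24 were higher in SW1783, 13 were higher in HT29 and 6 were not called. MET, the receptor of hepatocyte growth factor, was the most abundant in both (527, 501 and 495 TPM in SW1783 and 155, 199.9 and 211 TPM in HT29, 1.12 ± 0.08, adjusted p = 6.88e-47), and the ephrin receptor EPHA2 was also expressed in both (266, 255 and 256 TPM in SW1783 and 121, 141 and 136 TPM in HT29, 0.65 ± 0.05). AXL, the receptor of GAS6, was nearly confined to SW1783 (504, 493 and 491 against 1.04, 1.01 and 1.19 TPM, 8.55 ± 0.14, adjusted p listed as 0). EGFR had 86.6, 81.1 and 82.7 TPM in SW1783 and 18.7, 28.1 and 29.8 TPM in HT29 (1.40 ± 0.12), with HT29 replicate 1 the lowest.

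SW1783 had the platelet-derived growth factor receptors PDGFRA (12.1, 12.6 and 11.4 TPM, no count in HT29) and PDGFRB (43.7, 42.3 and 41.5 TPM against 0, 2 and 0 counts) and FGFR1 (45.5, 46.0 and 46.5 against 0.00942, 0.0236 and 0.0169 TPM, 11.04 ± 0.55). HT29 had FGFR4 (71.4, 75.7 and 70.7 against 0.501, 0.644 and 0.711 TPM, -7.19 ± 0.22), ERBB3 (51.5, 62.1 and 61.9 against 0.0514, 0.0294 and 0.0172 TPM, -11.13 ± 0.59) and MST1R, a relative of MET (37.6, 45.3 and 43.4 against 0.344, 0.426 and 0.268 TPM, -7.23 ± 0.28). ERBB2 was close (36.9, 39.1 and 36.4 TPM in SW1783 and 42.2, 50.2 and 48.6 TPM in HT29) and higher in HT29 just past 1.5-fold (log2 fold change -0.64 ± 0.05). FLT3 had no count in either line.

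**Figure D5:**
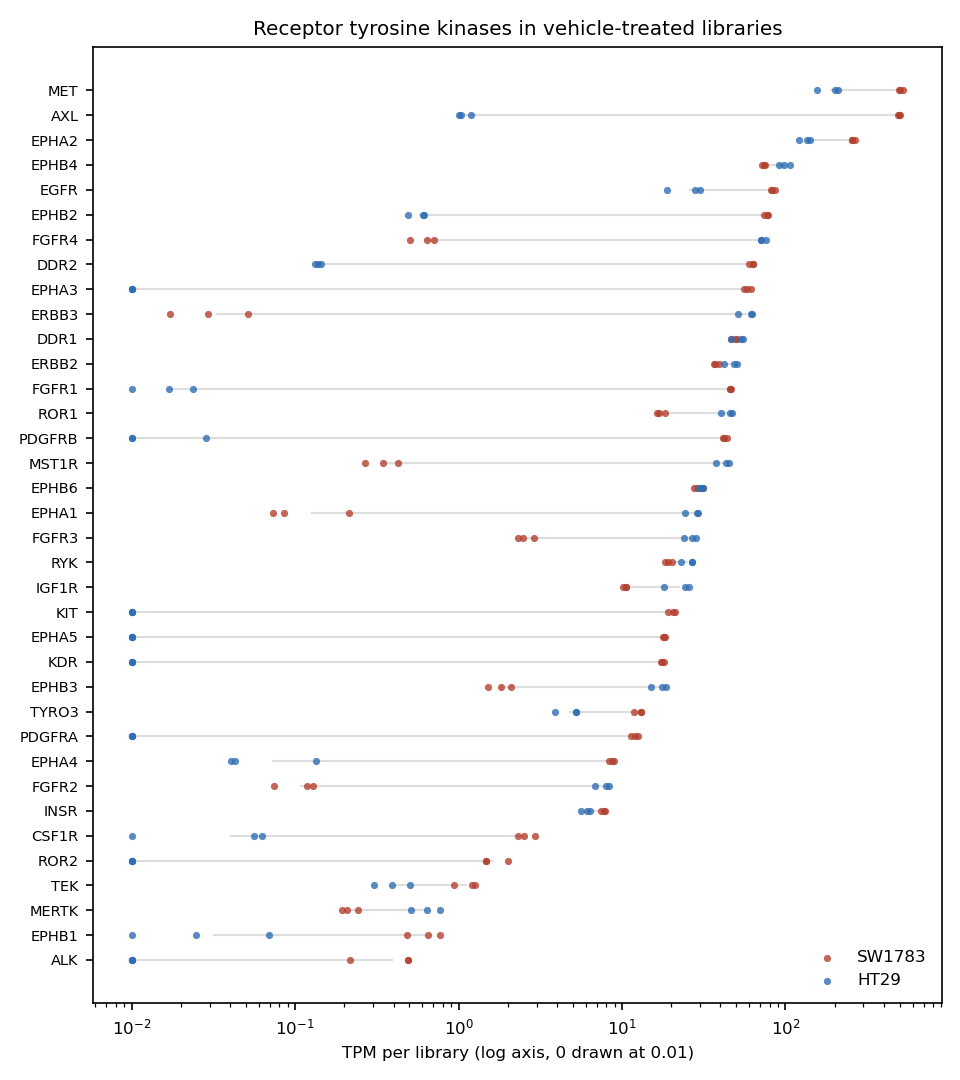
Level of the 36 most abundant of 48 receptor tyrosine kinases in each library (TPM on a log axis, 0 drawn at 0.01), SW1783 in red and HT29 in blue, 3 points per line, joined by a grey line between the means. MET, EPHA2 and EPHB4 are expressed in both lines, whereas AXL, EPHA3 and PDGFRB are far to the right in SW1783 and ERBB3, FGFR4 and MST1R in HT29.

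Growth factor ligands were also called in both directions. Of 42 listed, 41 were tested, 21 were higher in SW1783, 12 in HT29 and 8 were not called. SW1783 had FGF2 (186, 183 and 179 against 0.0238, 0.0596 and 0.0853 TPM, 11.32 ± 0.48), VEGFC (144, 155 and 146 TPM, no count in HT29), the AXL ligand GAS6 (124, 127 and 126 against 0.162, 0.202 and 0.241 TPM, 8.97 ± 0.28) and the MET ligand HGF (14.9, 14.6 and 14.2 TPM, no count in HT29). HT29 had the EGFR ligand AREG (84.9, 76.4 and 73.0 TPM, no count in SW1783), the ephrin EFNB1 (177, 198 and 186 against 25.4, 28.4 and 27.9 TPM, -3.10 ± 0.07) and FGF19, an intestinal hormone that acts through FGFR4 (95.1, 108 and 103 TPM against 0, 1 and 0 counts). Transcripts of GAS6 and its receptor AXL were thus both in SW1783, and those of FGF19 and its receptor FGFR4 both in HT29.

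Of 42 ligands, receptors and modulators of the transforming growth factor beta and BMP pathways, 41 were tested, 23 were higher in SW1783, 9 in HT29 and 9 were not called. TGFB1 had 456, 521 and 540.0 TPM in SW1783 and 15, 18.8 and 18.3 TPM in HT29 (4.55 ± 0.09, adjusted p listed as 0), and its receptor TGFBR1 54.9, 53.2 and 51.0 against 6.94, 10.1 and 10.4 TPM (2.22 ± 0.10), whereas TGFBR2 was slightly higher in HT29 (49.9, 62.0 and 64.4 against 44.7, 46.4 and 47.2 TPM, -0.66 ± 0.07). BMP4 was the leading ligand of HT29 (312, 321 and 323 against 13.2, 12.8 and 13.9 TPM, -4.90 ± 0.08). SMAD4, the shared effector, was lower in HT29 (2.41, 2.97 and 2.97 against 14.4, 13.5 and 12.9 TPM, 1.97 ± 0.08).

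Of 50 WNT genes, 44 were tested, 19 were higher in SW1783, 13 in HT29 and 12 were not called. SW1783 had the secreted antagonists DKK1 (607, 610.4 and 570.5 against 29.7, 30.6 and 29.8 TPM, 4.00 ± 0.07) and SFRP1 (193, 193 and 187 TPM, no count in HT29) and the ligand WNT5A (89.7, 92.5 and 93.8 against 0.0453, 0.0425 and 0.0203 TPM, 10.99 ± 0.59). HT29 had more of the co-receptor LRP5 (112, 138 and 131 against 18.8, 18.4 and 18.3 TPM, -3.09 ± 0.06) and of AXIN2, a direct target of the pathway (38.4, 46.9 and 45.2 against 8.0, 7.98 and 7.27 TPM, -2.80 ± 0.09). WNT2, WNT3A, WNT7A, FZD10 and WIF1 had no count in any library. Of 28 Notch and Hedgehog genes, 26 were tested and 11 were higher in each line. The receptor NOTCH2 was higher in SW1783 (102, 97.4 and 98.5 against 15.1, 22.4 and 22.8 TPM) and the ligand SHH in HT29 (23.2, 25.2 and 25.2 against 0.0767, 0.0987 and 0.154 TPM, -8.13 ± 0.49).

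Of 35 cytokines and chemokines, 34 were tested, 17 were higher in SW1783 and 11 in HT29. CSF1, a growth factor of macrophages (139, 141 and 138 against 0.309, 0.368 and 0.554 TPM, 8.11 ± 0.21), and IL11 (115, 116 and 123 against 0.666, 0.947 and 0.271 TPM, 7.17 ± 0.24) led in SW1783 and the chemokine CCL15 in HT29 (85.5, 73.8 and 66.9 TPM, no count in SW1783). LIF was expressed in both (26.3, 26.0 and 27.0 TPM in SW1783 and 19.2, 22.1 and 20.2 TPM in HT29) and not called. Of 44 cytokine receptors, 41 were tested, 28 were higher in SW1783 and 8 in HT29. The TWEAK receptor TNFRSF12A (509, 554 and 560.3 against 167, 188 and 173 TPM, 1.3 ± 0.06) and the interleukin-6 family subunit IL6ST (228, 221 and 219.6 against 18.4, 24.1 and 24.8 TPM, 3.00 ± 0.07) were the most abundant in SW1783.

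Receptors and channels of nerve cells are of interest because aconitum alkaloids are known to act on voltage-gated sodium channels. Of 13 sodium channel genes, 8 were tested, 6 were higher in SW1783 and 2 were not called, at low levels. The highest was SCN3A, with 4.81, 5.09 and 4.47 TPM in SW1783 and 0, 0 and 1 counts in HT29. The sum over the list was 35.6 to 38.4 CPM in SW1783 and 1.26 to 1.60 CPM in HT29, and SCN4A and SCN10A had no count in either line. Of 18 calcium channel genes, 14 were tested, 7 were higher in SW1783 and 3 in HT29. CACNA1C, the pore of the L-type channel, had 4.78, 4.81 and 4.64 TPM in SW1783 and no count in HT29, and CACNA1D, a related pore, was higher in HT29 (2.75, 3.81 and 4.09 against 0.126, 0.117 and 0.0942 TPM, -5.30 ± 0.29). Of 38 potassium channel genes, 32 were tested, 17 were higher in SW1783 and 9 in HT29, led by KCNN4 (17.0, 18.8 and 20.3 against 0.104, 0.0649 and 0.0464 TPM) and by KCNE3, an accessory subunit of colonic secretion (53.5, 56.9 and 57.8 against 0.391, 0 and 0.112 TPM, -8.78 ± 0.49). KCNA1, KCNA3 and KCNA5 were at 0 throughout.

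Transmitter receptors were mostly low. Of 21 acetylcholine receptor genes, 15 were tested, 5 were higher in HT29, 2 in SW1783 and 8 were not called. The share called was 46.7%, against 50.7% of all tested genes and 59.7% of tested protein-coding genes. CHRNA5 was the most abundant in both lines (17.0, 19.6 and 17.5 TPM in HT29 and 9.75, 7.93 and 6.94 TPM in SW1783, -1.46 ± 0.14), and CHRM3, the muscarinic receptor of gut secretion, was higher in HT29 (2.58, 3.10 and 3.44 against 0.490, 0.363 and 0.358 TPM, -3.23 ± 0.21). Of 50 glutamate, GABA and glycine receptor genes, 30 were tested, 13 were higher in SW1783 and 4 in HT29. The glycine receptor subunit GLRB had 23.2, 21.4 and 21.1 TPM in SW1783 and no count in HT29, GRIN2D, an NMDA receptor subunit, had 19.7, 23.2 and 22.5 TPM in HT29 against 0.437, 0.375 and 0.401 TPM, and GABRE was expressed in both and not called (20.5, 20.4 and 21.2 TPM in SW1783 and 19.1, 25 and 24.7 TPM in HT29). GRIK3, GRM3, GRM7, GABRA6, GABRG3, GABRD and GABRR1 had no count in any library. Of 37 monoamine, opioid, adenosine and histamine receptor genes, 21 were tested, 12 were higher in SW1783 and 5 in HT29, and 12 had no count in either line. The 5 in HT29 became 3 without replicate 2 of SW1783 or replicate 1 of HT29 and 2 without replicate 2 of HT29. ADORA2B, an adenosine receptor (54.5, 50.1 and 46.9 against 5.61, 4.25 and 5.34 TPM, 3.02 ± 0.15), led in SW1783 and ADRA2A, an adrenergic receptor (28.5, 34.8 and 36.2 against 0.518, 0.355 and 0.674 TPM, -6.35 ± 0.28), in HT29.

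Glycolysis was expressed in both lines, with differences in isoenzymes and carriers. Of 49 genes of glycolysis and gluconeogenesis, 46 were tested, 19 were higher in SW1783, 14 in HT29 and 13 were not called. GAPDH had 6073, 6114 and 6229.7 TPM in SW1783 and 3566, 3813 and 3896 TPM in HT29 and was not called (0.39 ± 0.04). TPM ratios ran above the count-based fold change by a median of 0.32 on the log2 scale over 9243 genes, and differences between lines were read from the fold change only. The subunits of lactate dehydrogenase ran in opposite directions, with LDHA higher in SW1783 (1266, 1214 and 1209.5 against 454, 496 and 504 TPM, 1.02 ± 0.04, adjusted p = 6.47e-132) and LDHB higher in HT29 (749, 794 and 793 against 449, 440.4 and 437 TPM, -1.14 ± 0.05, adjusted p = 8.61e-135). The lactate exporter SLC16A3 was higher in SW1783 (141, 143 and 152 against 20.9, 22.4 and 22.4 TPM, 2.41 ± 0.06). Glucose import divided too, with SLC2A1 in both but higher in HT29 (242, 265 and 265 against 102, 100.4 and 97.1 TPM, -1.68 ± 0.04) and SLC2A3 in SW1783 (18.9, 18.4 and 18.2 TPM, no count in HT29). FBP1, a key enzyme of gluconeogenesis, had 106, 107 and 109 TPM in HT29 against 0, 2 and 1 counts in SW1783. HK3 and G6PC1 were at 0 throughout.

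Among the lists of metabolic pathways the tricarboxylic acid cycle had the lowest share of DEGs. Of 27 genes, all tested and all above 1 CPM in both lines, 15 were not called, 8 were higher in HT29 and 4 in SW1783. Thus 44.4% were called, against 50.7% of all tested genes and 59.7% of tested protein-coding genes, and the list median was 0.08. MDH2 was the most abundant in both (302, 298 and 311 TPM in SW1783 and 256, 250.1 and 249 TPM in HT29, -0.05 ± 0.07). IDH1, the cytosolic isocitrate dehydrogenase that is often mutated in gliomas, was higher in HT29 (111, 120.0 and 126 against 38.4, 39.1 and 39.5 TPM, -1.93 ± 0.06, adjusted p = 4.7e-221). Of the malic enzymes, the cytosolic ME1 was higher in HT29 (72.4, 80.7 and 82.5 against 17.8, 17.3 and 17.2 TPM, -2.49 ± 0.08) and the mitochondrial ME2 in SW1783 (17.0, 17.6 and 16.5 against 5.57, 6.49 and 6.76 TPM, 1.13 ± 0.07).

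Of 27 genes of glutamine and glutamate metabolism, all tested, 13 were higher in HT29 and 7 in SW1783. The glutamine importer SLC1A5 had 749, 838 and 822 TPM in HT29 and 328, 339.9 and 347 TPM in SW1783 (-1.56 ± 0.04), and SLC38A2, another importer, ran the other way (299.8, 282 and 282 against 72.1, 86.6 and 90.1 TPM, 1.48 ± 0.06). Glutamine synthetase, GLUL, which astrocytes normally express strongly, was higher in HT29 (36.7, 43.2 and 44.4 against 23.6, 22.5 and 21.5 TPM, -1.20 ± 0.06). Of 30 genes of serine, glycine and one-carbon metabolism, 28 were tested, 11 were higher in HT29 and 7 in SW1783. MAT2A, which makes S-adenosylmethionine, was the most abundant in both and not called (349, 349 and 346 TPM in SW1783 and 258, 327 and 339.8 TPM in HT29), and NNMT, which consumes that methyl donor, was higher in SW1783 (188, 188 and 192 against 38.0, 36.3 and 35.6 TPM, 2.05 ± 0.08).

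More genes of cholesterol and lipoprotein metabolism were higher in HT29 than in SW1783. Of 45 listed, 40 were tested, 26 were higher in HT29, 4 in SW1783 and 10 were not called, with a median of -1.56. Squalene epoxidase, SQLE, had 531, 604 and 603 TPM in HT29 and 59.9, 59.9 and 59.1 TPM in SW1783 (-3.60 ± 0.05, adjusted p listed as 0), and DHCR7, of the last steps (184, 216 and 221 against 21.3, 20.9 and 19.5 TPM, -3.65 ± 0.06), followed. CYP51A1 and INSIG1 were not called. The 4 higher in SW1783 were the exporter ABCA1 (22.3, 22.9 and 22.5 against 0.871, 1.19 and 1.29 TPM, 4.01 ± 0.11), APOE (9.42, 10.6 and 11.6 against 0.376, 0.424 and 0.269 TPM), the esterifying enzyme SOAT1 (55.4, 54.5 and 54.3 against 1.80, 1.90 and 2.40 TPM, 4.45 ± 0.11) and SLC51A. ABCG5, ABCG8, APOA2 and APOB were at 0 throughout. HMGCS1, the entry of the pathway, stood at 97.8, 122 and 127 TPM in HT29 and 36.9, 35.5 and 33.7 TPM in SW1783.

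Of 46 genes of fatty acid and triglyceride metabolism, 44 were tested, 19 were higher in HT29 and 15 in SW1783. The desaturase SCD (825, 1089 and 1100.2 against a mean of 196 TPM, -2.67 ± 0.07) and the synthase FASN (288, 392 and 353 against 147, 147 and 146 TPM, -1.54 ± 0.07) were higher in HT29, whereas ACLY, which feeds them, was not called (380.1, 382 and 376 TPM in SW1783 and 188, 236 and 233 TPM in HT29). ELOVL5, FADS1 and FADS2, which make polyunsaturated fatty acids, were higher in SW1783, with ELOVL5 at 324, 325 and 305 TPM against 0, 1 and 0 counts in HT29, FADS1 at 38.9, 37.3 and 39.2 against 1.22, 1.87 and 1.82 TPM (4.22 ± 0.11) and FADS2 at 26.5, 25.4 and 24.6 against 0, 0.0865 and 0.0825 TPM (8.38 ± 0.38). These 3 genes each overlap another gene on their strand.

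Of 64 genes of xenobiotic oxidation and conjugation, 63 matched, 53 were tested, 29 were higher in HT29, 12 in SW1783 and 12 were not called. GSTP1, a glutathione transferase, was abundant in both and higher in HT29 (1047, 987 and 917 against 308, 316 and 302 TPM, -2.00 ± 0.09, adjusted p = 1.12e-109), and so was the quinone reductase NQO1 (530.5, 538 and 552 against 208, 208 and 199 TPM, -1.72 ± 0.06). The lines used different retinaldehyde dehydrogenases, with ALDH1A1 in HT29 as given above and ALDH1A3 in SW1783 (481, 499 and 482 against 9.75, 11.9 and 11.9 TPM, 5.13 ± 0.06, adjusted p listed as 0). The 4 listed glucuronosyltransferases of the UGT1A locus were higher in HT29, for example UGT1A10 (323, 347 and 348 against 0.318, 0.164 and 0 TPM), but they share exons with each other, which leaves their split uncertain. CYP3A5 was the most abundant CYP3A gene listed (24.0, 26.4 and 26.2 TPM in HT29 against 0.655, 0.772 and 0.758 TPM), and CYP1A2, UGT2B17, SULT1E1 and FMO1 were at 0 throughout.

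Of 32 drug transporters and sensors, 29 were tested and 10 were higher in each line. ABCC3 was the most abundant in HT29 (128, 161 and 157 against 40.1, 41.0 and 39.7 TPM, -2.20 ± 0.06) and ABCC1 in SW1783 (85.1, 84.3 and 84.2 against 30.3, 39.5 and 37.2 TPM, 0.93 ± 0.06). ABCB1, the efflux pump P-glycoprotein, was nearly confined to SW1783 (15.9, 18.0 and 17.1 against 0.378, 0.395 and 0.497 TPM, 5.03 ± 0.21, adjusted p = 9.32e-120), and the sensor AHR was not called (53.6, 52.8 and 54.1 TPM in SW1783 and 36.5, 43.9 and 46.8 TPM in HT29, 0.02 ± 0.07). SLCO1A2 and SLCO4C1 were at 0 throughout. Of 39 genes of ion, water and bicarbonate transport, 32 were tested, 18 were higher in HT29 and 8 in SW1783. The chloride entry route SLC12A2 (184, 226 and 229.6 against 33.6, 33.9 and 31.9 TPM, -3.00 ± 0.06) and the exit channel CFTR (24.3, 32.0 and 34.1 against 0.167, 0.153 and 0.167 TPM, -7.85 ± 0.24) were higher in HT29. The transferrin receptor TFRC was higher in SW1783 (339, 335 and 322 against 99.8, 132 and 137 TPM, 1.12 ± 0.08).

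The lists of housekeeping complexes had median log2 fold changes between -0.90 and -0.10. Single members differed by more, reaching 7.91 among ribosomal proteins, 4.35 among proteasome subunits and -4.01 among nuclear respiratory chain subunits. Genes without a count in a line are set at their bound in these values. Of 13 mitochondrially encoded mRNAs, all tested, 10 were higher in HT29 and 3 were not called, with a median of -0.90. Without replicate 1 of HT29 the count was 8. Together they held 75980 to 89060 CPM in HT29 and 41130 to 43260 CPM in SW1783. Of 78 nuclear subunits of the respiratory chain, 77 were tested, 30 were higher in HT29, 8 in SW1783 and 39 were not called, with a median of -0.30. COX8A was the most abundant in both (1234, 1172 and 1209 TPM in SW1783 and 2006, 1669 and 1532 TPM in HT29, -0.86 ± 0.12), and COX4I2 was at 0 throughout. Of 79 cytosolic ribosomal proteins, all tested, 40 were higher in HT29, 1 in SW1783 and 38 were not called, with a median of -0.59. Their sum was 53580 to 66730 CPM in HT29, highest in replicate 1, and 36300 to 36990 CPM in SW1783, and 36 were higher in HT29 without that library. Its part in these differences was otherwise not tested. Of 39 proteasome subunits, all tested, 10 were higher in SW1783, 6 in HT29 and 23 were not called. PSMD2 was the most abundant in SW1783 (724, 719 and 707 against 159, 179 and 175 TPM, 1.75 ± 0.04). DEGs made up 41.0% of proteasome subunits, 51.9% of ribosomal proteins and 49.35% of the tested nuclear respiratory chain subunits. Among all tested genes the share was 50.7%, and among tested protein-coding genes it was 59.7%.

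Of 32 genes of mitosis and replication, all tested, 16 were higher in HT29, 2 in SW1783 and 14 were not called, with a median of -0.56. Thus 56.25% were called, against 50.7% of all tested genes and 59.7% of tested protein-coding genes. PCNA, the replication clamp, had 534, 512 and 498 TPM in HT29 and 429, 408 and 429 TPM in SW1783 (-0.61 ± 0.08), a call lost without replicate 1 of HT29 or replicate 2 of SW1783, and CCNB1 (297, 296 and 302 TPM in SW1783 and 226, 243 and 243 TPM in HT29) and TOP2A (304, 293 and 277 TPM in SW1783 and 213, 249 and 245 TPM in HT29) were not called. Of 31 cell cycle regulators and tumour suppressors, 29 were tested, 10 were higher in HT29, 8 in SW1783 and 11 were not called. RB1, the retinoblastoma gene, was lower in SW1783 (4.31, 3.88 and 4.44 against 51.8, 68.2 and 66.7 TPM in HT29, -4.20 ± 0.11, adjusted p listed as 0), while the inhibitors CDKN2A (207, 256 and 281 against 93.4, 93.6 and 86.5 TPM, 1.12 ± 0.12) and CDKN2C (129, 135 and 130.5 against 11.5, 11.6 and 9.08 TPM, 3.30 ± 0.10) were higher there. MYC was higher in HT29 (113, 119 and 116 against 28.9, 28.1 and 31.2 TPM, -2.30 ± 0.07, adjusted p = 1.51e-232).

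The proteins that the study placed in a brain and in an intestinal network were read here in untreated cells. The table of the brain network used here lists 1039 proteins, of which 1036 matched a gene, 780 were tested, 382 were higher in SW1783, 171 were higher in HT29 and 227 were not called. At least 1 CPM was reached by 454 of them in SW1783 and by 314 in HT29, and 140 had no count in any of the 6 libraries. Of 366 proteins of the intestinal network, 364 matched, 283 were tested, 167 were higher in HT29, 65 in SW1783 and 51 were not called. At least 1 CPM was reached by 174 in HT29 and by 99 in SW1783, and 52 had no count. In percent, 70.9% of the tested brain members and 82.0% of the tested intestinal members were DEGs, against 50.7% of all tested genes and 59.7% of tested protein-coding genes.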

How the data were processed

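The mRNA of the 6 vehicle libraries of batch B was sequenced from stranded, paired-end libraries. Per the submitters' processing notes, the authors trimmed the reads with Trim Galore 0.6.5, aligned them to GRCh38 with STAR 2.7.3a and deposited expected counts per Ensembl gene from RSEM 1.3.3, that is, estimated counts, of which 8.84% were not whole. The study's methods give other versions of Trim Galore and STAR, and which were run was not settled here. They name hg19 as well as GRCh38 for the genome, and the build behind the counts was not settled here. Counts were rounded, and DESeq2 1.42.0 (R 4.3.3) applied its Wald test with Benjamini-Hochberg adjustment over all genes, the thresholds of the study (adjusted p under 0.05, over 1.5-fold) and no covariate. The quasi-likelihood test of edgeR 4.0.16 was an alternative. The libraries were treated as unpaired. The members and lists were chosen with earlier results of these data known. The scripts were tested on simulated data.

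Symbols, positions and exon lengths came from GENCODE release 44 on GRCh38, where 56558 of 60675 genes matched. The remaining 4117 held 0.142% of the counts and stayed in library sizes and tests. CPM were counts scaled to the library total, and TPM were computed from counts and union exon lengths. Where a line had no count, a fold is a lower bound against 3 counts over its 3 libraries. With 1 to 3 counts it is a ratio of counts scaled to library totals, with an exact 95% interval. Medians of lists use these bounds. The depth was 18260737 to 31811972 counts per library. Of 314 genes named in the texts, 83 share their strand with an overlapping annotated gene, and how the counting split such reads was not tested.

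The genes named were the 12 restricted protein-coding genes per line with the highest TPM, the 8 DEGs per direction with the largest fold change among those averaging at least 100 normalized counts in each line, and from each list the members most abundant in a line, the defining markers and the members at 0 in both. Any other gene in the text was chosen after its values were seen. Y-linked genes and XIST are not named, and the results of some other genes are not reported here.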

Additional observations from a re-analysis of the deposited data

How the results depend on the processing

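The number of DEGs was 12143 and ranged from 9472, with the 1.5-fold threshold inside the test, to 15051, with no fold threshold. It was 10968 by edgeR's quasi-likelihood test, 12187 with TMM-derived and 12154 with total-count size factors, 10848 with a low-count filter, 11893 with libraries thinned to equal depth, 12756 with all 24 batch B libraries in the fit and 12230 with the batch A vehicles. Leaving out a library gave 11294 to 11561 DEGs, 6148 to 6264 of them higher in SW1783 and 5115 to 5297 higher in HT29. The median log2 fold change of tested genes lay between 0.02 and 0.06 under the scalings and fits tried. Genes restricted to SW1783 numbered 366, but 243 when no count was allowed in the other line and 975 when the minimum was 1 CPM. Those restricted to HT29 numbered 177, and 90 and 478 under these settings. Leaving out a library gave 364 to 424 and 174 to 210. Of 1800 counts of list members under an alternative, 44 moved by over 1.5 times. With edgeR, glutamate, GABA and glycine receptors higher in SW1783 fell from 13 to 8, and with the threshold inside the test ribosomal proteins higher in HT29 fell from 40 to 25. Of 249 named genes with a fitted fold change, 236 kept their direction and call under every alternative in which they had a value. The setting with no fold threshold was applied neither to named genes nor to list counts. COX8A, EPHA2, ERBB2, FOXC1, HOXD13, PCNA and TGFBR2 were no longer called with the threshold inside the test. The sign changed, at values that were not called, for AHR (-0.0074 by edgeR and -0.0099 with TMM-derived size factors, range with a library left out -0.0479 to 0.06), CCNB1 (-0.0206 by edgeR, -0.0223 with TMM-derived and -0.0099 with total-count size factors, -0.0473 with the batch A vehicles, range -0.0184 to 0.0356), SOX2 (0.029 with thinned counts, range -0.7738 to 0.3739), TOP2A (range -0.0506 to 0.0366) and LIF (range -0.0009 to 0.08). OLIG2 was called higher in SW1783 with all 24 batch B libraries in the fit.

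With the replicate number as a block, 10933 genes were DEGs, 5962 higher in SW1783 and 4971 higher in HT29. Same-numbered libraries of the lines deviated from their group means with correlations of -0.14, 0.08 and -0.14 over 9627 genes. Differently numbered libraries gave -0.08 to 0.18. These values show no pairing by number, but they cannot tell whether same-numbered libraries were handled together, which was not tested.

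A total of 3 counts over a line sets the floor below which a gene cannot be told from absent, and a fold against no count is only a bound. Whether the 3 libraries of a line came from separate cultures is not stated.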

Other observations

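The genes of antigen presentation, which load peptides on surface molecules for T cells, were mostly higher in SW1783. Of 27 listed genes, 25 were tested, 22 were higher in SW1783, 1 was higher in HT29 and 2 were not called, with a median log2 fold change of 2.63, against 27.5% of all tested genes higher in SW1783. HLA-B, a class I heavy chain, had 289.7, 291 and 289 TPM in SW1783 and 3.75, 2.41 and 2.23 TPM in HT29 (6.37 ± 0.26). B2M, the shared light chain, had 862, 864 and 848 against 362, 374 and 361 TPM (0.91 ± 0.05). TAP1, which carries peptides into the endoplasmic reticulum, had 63.8, 65.9 and 63.9 against 6.09, 6.87 and 6.92 TPM (2.97 ± 0.08), and NLRC5, the activator of class I genes, 8.24, 8.59 and 8.23 against 0.157, 0.213 and 0.246 TPM. The peptide trimming enzymes divided, with ERAP1 higher in SW1783 (83.1, 80.6 and 76.4 against 7.44, 8.92 and 9.40 TPM, 2.90 ± 0.07) and ERAP2 higher in HT29 (36.1, 39.2 and 39.2 against 3.44, 3.22 and 3.38 TPM, -3.83 ± 0.10). The class II chain HLA-DRA had 17.4, 15.2 and 19.4 TPM in SW1783 and no count in HT29, and HLA-DQA1 and HLA-DQB1 had no count in either line. HLA genes are near-identical in stretches and vary between people, so that their counts depend on how reads were assigned.

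Of 28 complement and coagulation genes, 26 were tested, 17 were higher in SW1783 and 6 in HT29. F3, tissue factor, which starts coagulation, had 186, 174 and 190.1 TPM in SW1783 and 6.74, 6.75 and 6.99 TPM in HT29 (4.44 ± 0.10). The protease inhibitor TFPI2 had 143, 144 and 149 TPM in SW1783 and no count in HT29. The complement proteases C1R (61.5, 64.5 and 60.8 against 0.0558, 0.0524 and 0.0750 TPM) and C1S (29.3, 30.9 and 28.5 against 0.0391, 0.0244 and 0.0699 TPM) were likewise in SW1783. C1QA had no count in any library.

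Cancer-testis antigens are normally expressed in germ cells. Of 25 listed genes, 24 matched, 14 were tested and 12 were higher in SW1783. MAGED1, which is widely expressed in adult tissue, led with 447, 452 and 432 against 58.4, 69.1 and 63.3 TPM (2.48 ± 0.05). MAGEA3 (45.4, 44.8 and 43.1 against 9.05, 8.98 and 9.33 TPM) and MAGEA6 (34.1, 31.9 and 32.2 against 2.83, 4.37 and 4.04 TPM) are near-identical copies, so their split is uncertain. MAGEB2, CTAG2, PRAME, GAGE1 and CT45A1 had no count in either line.

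Imprinted genes, which are expressed from a single parental copy, and abundant noncoding RNAs were mixed. Of 23 listed genes, 21 matched and were tested, 12 were higher in SW1783, 5 in HT29 and 4 were not called. MEG3, an imprinted noncoding RNA on chromosome 14, had 141, 149 and 138 TPM in SW1783 and no count in HT29, at least 20179-fold higher in SW1783, with 6 overlapping genes on its strand. PEG10 had 148, 145 and 147 against 0.0969, 0.0758 and 0.0434 TPM (10.69 ± 0.44). IGF2, a growth factor, was in HT29 (39.8, 43.2 and 39.3 against 0.225, 0.145 and 0.0844 TPM, -8.40 ± 0.36). MALAT1 was expressed in both (347, 368 and 364 TPM in SW1783 and 341, 346 and 329 TPM in HT29) and not called.

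Among genes averaging at least 100 normalized counts in each line, the median log2 fold change differed between chromosomes. It was highest on chromosome 14 (0.68 over 318 genes, of which 172 were higher in SW1783 and 28 in HT29), 21 (0.67 over 99 genes) and X (0.40 over 305 genes). It was lowest on chromosome 11 (-0.60 over 569 genes, of which 72 were higher in SW1783 and 286 in HT29), 15 (-0.49 over 328 genes) and 13 (-0.48 over 171 genes). Copy number was not measured, and its part was not tested.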
